A study of Homo sapiens with 4 samples.

Results

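Of the 54061 H3K27Ac peaks called in MOLM13 cells treated with SNDX-50469, 23257 shared no base with any of the 245875 peaks of untreated control cells, and 5183 of these treated-only peaks lay on chromosomes 5, 6 and 13. These 5183 peaks are described here. They were chosen by position alone, as peaks of the SNDX-50469 list on the 3 chromosomes that share 0 bp with the control list, and the 3 chromosomes were selected on their large number of such peaks. Treated-only status and the number of such peaks per chromosome are therefore how the peaks were picked and not a finding, and no test is made of them. Chromosome 6 held 2672 of the peaks, chromosome 5 held 1398 and chromosome 13 held 1113.

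MOLM13 is an established line of human AML cells with MLL1-r, a rearrangement of the MLL1 gene whose fusion protein depends on menin to reach its target genes. SNDX-50469 is a menin inhibitor, and the treated cells had received 500 nM for 16 h. The control library is labelled as having no treatment, while the treatment description names a DMSO arm. H3K27Ac was profiled by ChIPmentation, in which an antibody holds the chromatin and the transposase Tn5 adds the sequencing adapters, in 1 library of each condition, and 2 input libraries also belong to the series but are not used here. All values come from 1 cell line and 1 library per condition, so no difference has a replicate check and no p-value is given.

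Acetylation of lysine 27 on histone H3 marks active enhancers and active promoters. A peak caller reports a stretch where more fragments pile up than the background of that library predicts, so a weak stretch can pass in one library and miss in another. Acetylated promoters usually carry tall and wide peaks over the gene start, and enhancers carry peaks at a distance from it. In bulk chromatin, a mark present in more cells and a denser mark in each cell cannot be told apart.

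The depth of the libraries is known only through the peak lists. Folds over background are read here as ratios with 1 added to both the pileup and the background. The smallest fold was 3.46 in the SNDX-50469 list, which is that of a pileup of 5 fragments over a background of 0.735. In the control list it was 2.66, which is that of a pileup of 4 over a background of 0.877. The control list covered 224 Mb and the SNDX-50469 list 29.4 Mb. The cell type label was checked on fixed marker genes, and a control peak lay over the 5′ end of 8 of 10 myeloid, 2 of 4 B cell, 2 of 4 T cell, 1 of 5 erythroid and 0 of 4 epithelial markers. The SNDX-50469 list covered the 5′ end of 5 myeloid markers and 1 B cell marker, and of no marker of the T cell, erythroid and epithelial lists.

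Few treated-only peaks of the 3 chromosomes touched a gene start. Of the 4853 annotated promoter windows on chromosomes 5, 6 and 13, each running from 250 bases before to 50 bases after a start site, control peaks touched 2066, or 42.6%. SNDX-50469 peaks touched 1009, or 20.8%, and treated-only peaks touched 23 windows of 21 genes, or 0.474%. The rule leaves out every peak that shares a base with control, and control peaks lie in many of these windows. On the 3 chromosomes treated-only peaks covered 1189 kb, all SNDX-50469 peaks 5011 kb and control peaks 39610 kb. A low share is therefore partly set by how the peaks were picked and is only a description. A treated-only peak covered the start site itself in 8 windows. Only C9 on chromosome 5 and TRIM40 on chromosome 6 were protein-coding genes with the outermost 5′ end inside such a peak, and no protein-coding gene of chromosome 13 did. C9 encodes the last component of the complement membrane attack complex, and TRIM40 is a member of the tripartite motif protein family. EGFLAM, an extracellular matrix protein, and CCN6, a secreted protein of the CCN family, had an inner start site covered. GPR180 on chromosome 13, a membrane protein, is shown with them because its window holds the edge of a treated-only peak before the start site, and these 3 genes were chosen after their values were seen. The windows show which bases of a promoter the peaks reached. They are RefSeq sequences of GRCh38.p14 written 5′ to 3′ on the strand of the gene, with the bases inside a treated-only peak in capitals.

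C9, chr5:39364446-39364745, minus strand: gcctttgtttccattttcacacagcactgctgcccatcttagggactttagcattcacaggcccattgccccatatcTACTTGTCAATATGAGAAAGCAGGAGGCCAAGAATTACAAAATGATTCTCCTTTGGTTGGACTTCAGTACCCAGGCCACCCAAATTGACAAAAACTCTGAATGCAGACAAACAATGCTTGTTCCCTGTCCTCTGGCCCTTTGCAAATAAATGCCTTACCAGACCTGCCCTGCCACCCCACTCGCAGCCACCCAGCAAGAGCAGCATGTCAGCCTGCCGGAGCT
EGFLAM, chr5:38445296-38445595, plus strand: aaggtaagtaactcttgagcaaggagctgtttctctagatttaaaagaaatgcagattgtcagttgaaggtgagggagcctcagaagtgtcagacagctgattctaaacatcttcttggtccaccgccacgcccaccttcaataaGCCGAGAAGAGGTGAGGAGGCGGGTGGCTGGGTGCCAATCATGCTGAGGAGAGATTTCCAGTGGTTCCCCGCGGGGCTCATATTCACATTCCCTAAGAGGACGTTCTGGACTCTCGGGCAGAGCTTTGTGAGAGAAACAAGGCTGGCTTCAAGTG
TRIM40, chr6:30135890-30136189, plus strand: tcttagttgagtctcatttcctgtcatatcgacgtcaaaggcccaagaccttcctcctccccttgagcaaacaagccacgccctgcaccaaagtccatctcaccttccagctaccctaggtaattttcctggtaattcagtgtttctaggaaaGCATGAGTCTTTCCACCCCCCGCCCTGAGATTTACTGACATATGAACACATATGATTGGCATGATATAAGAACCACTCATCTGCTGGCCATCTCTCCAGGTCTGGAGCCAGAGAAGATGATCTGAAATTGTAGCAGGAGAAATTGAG
CCN6, chr6:112053854-112054153, plus strand: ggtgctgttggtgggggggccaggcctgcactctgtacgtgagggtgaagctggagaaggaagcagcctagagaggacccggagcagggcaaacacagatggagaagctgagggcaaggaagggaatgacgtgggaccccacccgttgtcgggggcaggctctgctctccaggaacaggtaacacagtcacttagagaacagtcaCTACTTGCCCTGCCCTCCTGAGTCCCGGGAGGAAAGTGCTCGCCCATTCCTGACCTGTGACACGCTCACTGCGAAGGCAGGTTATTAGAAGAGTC
GPR180, chr13:94601607-94601906, plus strand: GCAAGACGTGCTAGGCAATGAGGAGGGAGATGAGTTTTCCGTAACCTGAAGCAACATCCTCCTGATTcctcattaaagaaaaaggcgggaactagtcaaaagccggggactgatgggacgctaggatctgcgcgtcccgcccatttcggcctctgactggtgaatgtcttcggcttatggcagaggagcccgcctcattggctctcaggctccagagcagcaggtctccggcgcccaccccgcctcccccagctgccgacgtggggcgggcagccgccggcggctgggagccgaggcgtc

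The peak over the C9 start was 674 bp wide, covered 223 of the 300 bases and had a fold of 3.58 and a −log10 p of 4.15. The nearest control peak was 30205 bp away. The peak at TRIM40 was 746 bp wide with a fold of 3.58 and lay 1237 bp from a control peak. The peaks at EGFLAM, CCN6 and GPR180 were 183, 542 and 176 bp wide and had folds of 3.46, 3.56 and 3.88. All 5 peaks were thus weak ones, with folds within 0.5 of the smallest fold in the list. The 5 windows differ in base composition, from 2 CpG in the C9 window and 4 in that of TRIM40 to 22 in that of GPR180. Over the 23 touched windows the median was 6 CpG and 50.7% GC, beside 11 CpG and 55.7% GC over all 4853 windows of the 3 chromosomes and 14 CpG and 58.7% GC over all 35116 windows of the genome. Short motifs were searched on both strands. The GC box GGGCGG was in 4 of the 23 touched windows, 17.4%, beside 40.7% of the windows of the 3 chromosomes and 45.0% of all windows. The CCAAT box was in 9, or 39.1%, beside 34.3% and 34.6%, and the TATA box TATAAA was in 3, or 13.04%, beside 14.6% and 11.5%. With 23 windows these shares are a description of letters only. Control peaks touched 2066 of the 4853 windows, and the rule leaves out peaks that share a base with them. The touched windows are thus a selected set, and they were not compared with windows free of control peaks.

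Treated-only peaks were not spread evenly over the genome. Among all SNDX-50469 peaks 43.0% were treated-only, and on the other autosomes without chromosome 8 the share was 24.1%, or 5020 of 20846. With chromosome 8 the other autosomes held 18062 treated-only peaks. Chromosome 8, which is kept out of the comparison, thus held more of them than chromosomes 5, 6 and 13 together. On chromosome 5 the share was 51.4%, with a Wilson 95% interval of 49.6 to 53.3%. It was 49.2% on chromosome 6, with an interval of 47.8 to 50.5%, and 52.7% on chromosome 13, with an interval of 50.6 to 54.9%. Intervals here and below describe counting error alone, and peaks that lie side by side may depend on each other. All 3 shares exceeded that of the other autosomes, as the choice of the chromosomes requires.

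Counted in bins of 1 Mb that hold at least 1 control peak, treated-only peaks numbered 16.1 per bin on chromosome 6, with an exact Poisson 95% interval of 15.5 to 16.7 over 166 bins. Chromosome 13 had 11.9 per bin over 92 bins, with an interval of 11.2 to 12.6, and chromosome 5 had 7.87 per bin over 174 bins, with an interval of 7.46 to 8.30. The mean on chromosome 5 hides a break, since its median bin held 2 peaks and its highest held 62. On the other autosomes without chromosome 8 the median bin also held 2 peaks. There, the 97.5 percentile was 9 peaks per bin, and 2.38% of the 2013 bins held more. More than 9 treated-only peaks were found in 133 of 166 bins on chromosome 6, 53 of 92 on chromosome 13 and 37 of 174 on chromosome 5.

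**Figure D1:**
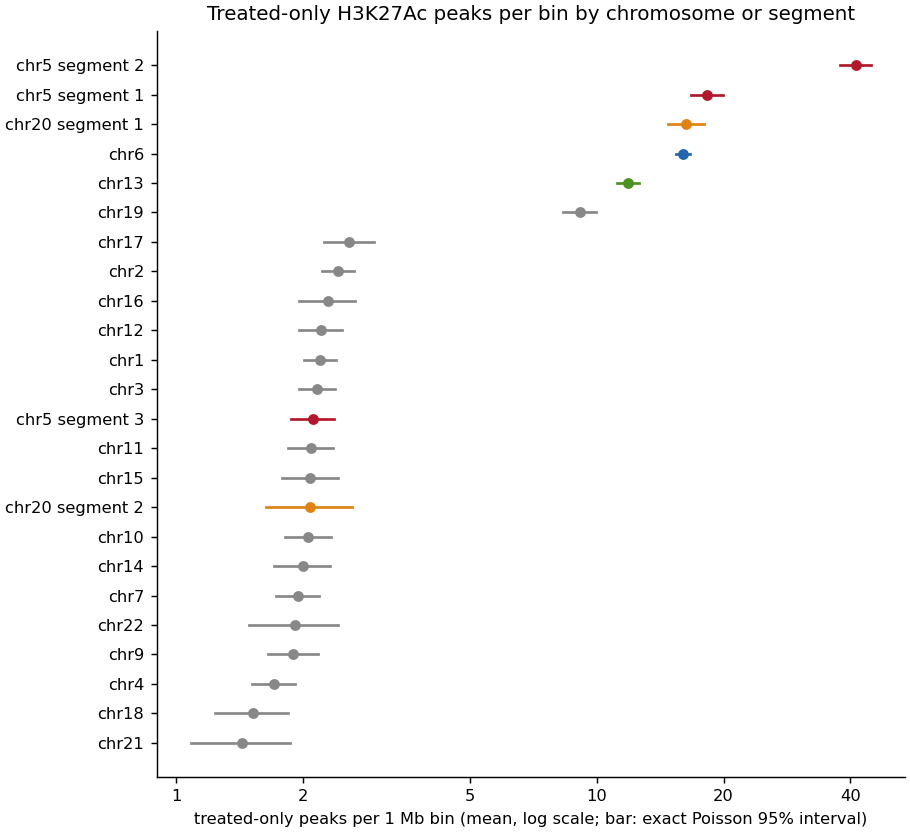
Mean number of treated-only peaks per 1 Mb bin, on a log axis, for each autosome without chromosome 8, with exact Poisson 95% intervals as bars, and with chromosomes 5 and 20 divided at their steps. The first and the second segment of chromosome 5, at 18.3 and 41.2 per bin, and chromosomes 6 and 13 stand with the first segment of chromosome 20 and chromosome 19 above all other points, which lie between 1.44 and 2.58 per bin.

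The break on chromosome 5 was a single sharp fall. Steps were placed where the mean number per bin changed at least 2-fold between segments of at least 5 bins. From the start of the chromosome to 31 Mb, 513 treated-only peaks gave 18.3 per bin, with an interval of 16.8 to 20.0. From 31 to 45 Mb, 577 peaks gave 41.2 per bin, with an interval of 37.9 to 44.7. From 45 Mb to the end of the chromosome, 279 peaks gave 2.11 per bin, with an interval of 1.87 to 2.38. The mean of 2.46 on the other autosomes without chromosome 8 lay above that interval. With chromosomes 19 and 20 also left out, a choice made after seeing the data, the mean was 2.09 and lay inside it. The density thus fell 19.5-fold across the step at 45 Mb. Bins of the second segment held between 16 and 62 treated-only peaks, and bins after the step held between 0 and 8. The bins of these 2 segments did not overlap. Bins of the first segment held between 2 and 35 and did overlap those after the step. The segments were placed on these same counts, so numbers per bin on either side describe the step and do not test it. Before the step, 37 of 42 bins held more than 9 peaks, and after it 0 of 132 did.

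Most of the treated-only peaks of chromosome 5 came from its first 45 Mb. The bins before the step made up 24.1% of the kept bins and 19.1% of the control peaks, but they and the gaps between them held 1118 of the 1398 treated-only peaks, or 80.0%. Control peaks did not show the same fall. They numbered 50 per bin up to 31 Mb, 101 per bin from 31 to 45 Mb and 90.3 per bin after that. Treated-only peaks per 100 control peaks were 36.6 and 40.8 in the first and second segments and 2.34 in the third, a 17.4-fold fall from the second to the third. Peaks that both lists share fell from 19.7 to 5.39 per bin across the same step.

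At a finer scale the fall coincided with the approach to a long empty stretch. The bins from 40 to 44 Mb held 42, 42, 35 and 47 treated-only peaks, the bin from 44 to 45 Mb held 16, and the next held 5. The last treated-only peak before the stretch ended at chr5:46030152. No SNDX-50469 peak and no control peak lay in the 3.57 Mb from there to chr5:49599489, and the next treated-only peak started at chr5:51998940. The empty stretch lies in the region of the centromere, where short reads map poorly. Beyond it, the bin from 50 to 51 Mb held 172 control peaks and 0 treated-only peaks, and the bin from 54 to 55 Mb held 153 control peaks and 1 treated-only peak.

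**Figure D2:**
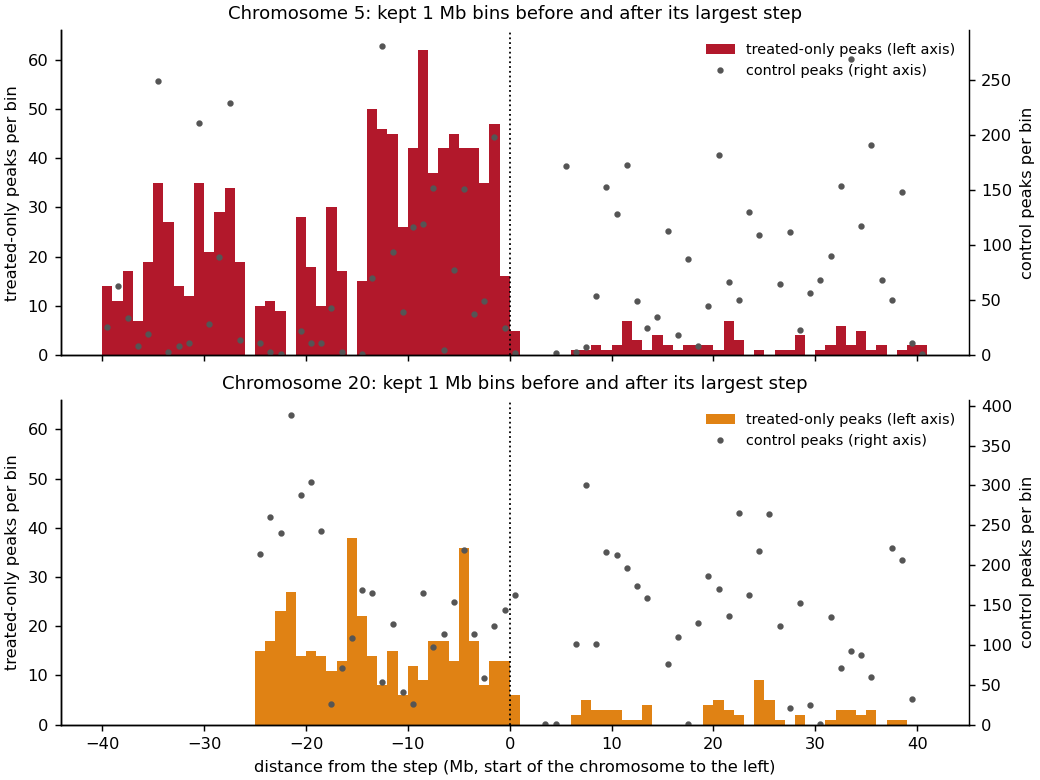
Treated-only peaks (bars, left axis) and control peaks (points, right axis) in kept 1 Mb bins within 40 Mb of the largest step of chromosome 5 (top) and chromosome 20 (bottom). Treated-only bars fall at the dotted line from 41.2 to 2.11 per bin on chromosome 5 and from 16.3 to 2.09 on chromosome 20, while control points occur at similar heights on both sides.

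Chromosome 6 showed no such step. Its 2665 treated-only peaks in kept bins formed 1 segment, with between 1 and 32 peaks per bin and a median of 16, and no bin was at 0. Its own empty stretch of 4.29 Mb near the centromere had 954 treated-only peaks before and 1718 after it. Both sides of that stretch were therefore dense, unlike on chromosome 5. Control peaks numbered 115 per bin, and there were 13.9 treated-only peaks per 100 control peaks.

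Chromosome 13 had treated-only peaks throughout, in 5 segments of unequal density. The means were 15.2 per bin from 19 to 54 Mb, 7.06 from 54 to 75 Mb, 18.0 from 75 to 80 Mb, 5.00 from 80 to 87 Mb and 11.4 from 87 to 115 Mb. Control peaks rose and fell at the same segment edges, with 147, 28.8, 114, 23.3 and 87.1 per bin. They were densest in the first segment, while treated-only peaks were densest in the third. The largest step on the chromosome, 3.60-fold at 80 Mb, lay where control peaks fell 4.91-fold. Even the sparsest segment, with 5.00 per bin and an interval of 3.48 to 6.95, lay above the mean of 2.46 on the other autosomes without chromosome 8. Treated-only peaks per 100 control peaks ran the other way and were higher in the sparse segments, at 24.5 and 21.5, than in the rest, at 10.3, 15.7 and 13.1. With bins of 0.5 or 2 Mb, or with peaks at least 1 kb from control, no step was kept on chromosome 13, and per control peak the ratio at 80 Mb was 0.733. What part the density of control peaks has in these segments was not tested.

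**Figure D3:**
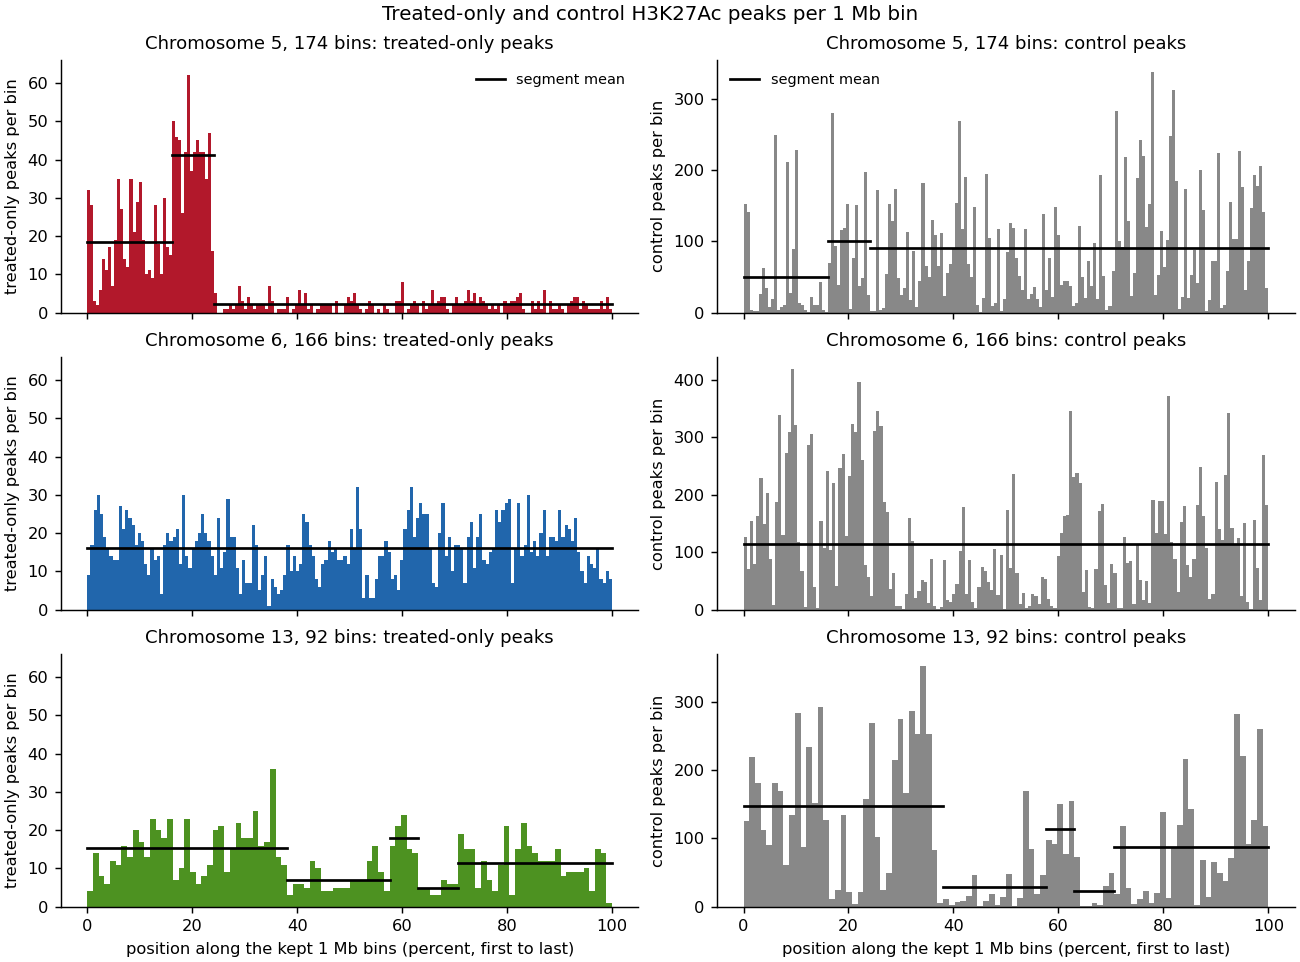
Treated-only peaks (left) and control peaks (right) in each kept 1 Mb bin of chromosomes 5, 6 and 13, with the position given as percent of the kept bins and the mean of each segment as a black line. On chromosome 5 the treated-only bars drop after 24.1% of the bins while the control bars do not, chromosome 6 is 1 segment at 16.1 per bin, and the 5 segments of chromosome 13 run alongside those of the control peaks.

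Bins with more control peaks held more treated-only peaks, both in the dense stretches and on the other autosomes. Spearman's rank correlation between both numbers was 0.759 over the 42 bins before the step of chromosome 5, 0.625 over the 166 bins of chromosome 6 and 0.672 over the 92 bins of chromosome 13. It was 0.193 over the 132 bins after the step of chromosome 5 and 0.540 over the 2013 bins of the other autosomes. Bins of 1 chromosome share both libraries and their mappable length, so these are descriptions. Among the bins of each set with the most control peaks, 10 before the step of chromosome 5, 41 on chromosome 6, 23 on chromosome 13, 33 after the step and 503 elsewhere, the median number of treated-only peaks was 36, 20, 16, 2 and 3 in the same order. Among as many bins of each set with the fewest control peaks, the median was 10, 9, 5, 2 and 1.

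**Figure D4:**
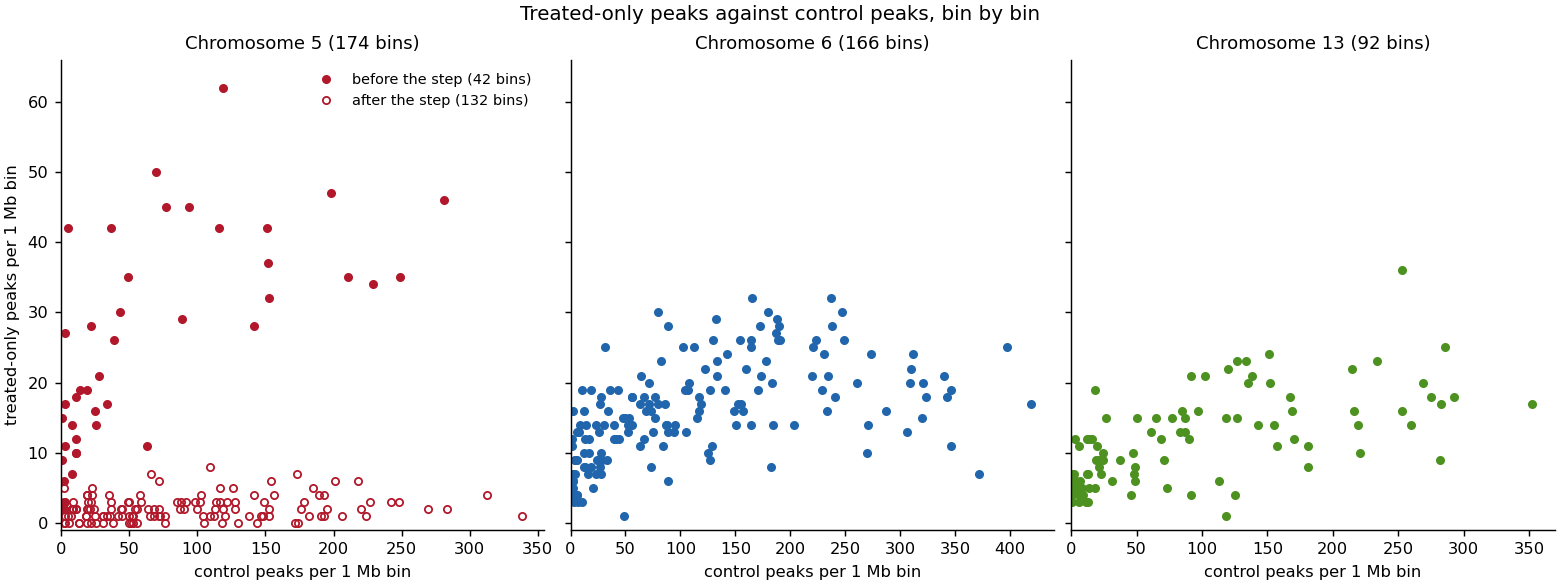
Number of treated-only peaks against number of control peaks in each kept 1 Mb bin of chromosomes 5, 6 and 13. On chromosome 5 the 132 bins after the step (open) stay at 8 or below at every number of control peaks, while 37 of the 42 bins before it (filled) lie above 9.

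A fall from a dense stretch to about 2 treated-only peaks per bin was found on 1 other of the autosomes compared. The first 25 Mb of chromosome 20 held 407 treated-only peaks, or 16.3 per bin, and the rest held 73, or 2.09 per bin, a 7.81-fold fall, while control peaks numbered 157 and 131 per bin. There too the step lay just before an empty stretch, of 3.10 Mb, near the centromere. Chromosome 19, which of the autosomes compared has the highest density of control peaks at 217 per bin, held 9.11 treated-only peaks per bin. Without chromosomes 8, 19 and 20, none of the 1898 bins on the other autosomes held more than 9. Chromosome 19 fell from 9.83 to 4.14 per bin at 52 Mb, where control peaks fell 1.84-fold. Steps on the remaining autosomes, which had about 2 treated-only peaks per bin as a chromosome mean, are not described further. Their ratios rest on few peaks and can be large. On chromosome 9 the ratio at 38 Mb was 24.5, from 2.45 per bin to 1 peak in 10 bins, where control peaks fell 8.14-fold.

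Control peaks were also called again more often before the step of chromosome 5 than after it. The share of control peaks touched by a SNDX-50469 peak was 14.9% before the step of chromosome 5, with a Wilson interval of 13.6 to 16.2%, and 3.62% after it, with an interval of 3.30 to 3.97%. It was 9.14% on chromosome 6, 7.57% on chromosome 13 and 5.95% on the other autosomes without chromosome 8. On chromosome 19, with 9.11 treated-only peaks per bin, it was 11.7%, so it did not follow their density on every chromosome. Strong control peaks, those whose −log10 q reached 5, were called again far more often, at 93.3% of 90 before the step, 67.0% of 415 after it, 85.0% of 642 on chromosome 6, 84.2% of 260 on chromosome 13 and 76.0% of 7108 on the other autosomes. The remaining control peaks were called again at 12.3% before the step and 1.33% after it. As length, SNDX-50469 peaks covered 31.1% of what control peaks covered before the step, 5.79% after it, 14.2% on chromosome 6, 12.5% on chromosome 13 and 9.22% on the other autosomes. The control peaks themselves were alike on both sides of the step, with median widths of 340 and 324 bp and median folds of 2.93 and 2.93.

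The treated-only peaks were narrow and weak on all 3 chromosomes. Their median width was 171 bp, with quartiles of 120 and 310 bp and a range of 98 to 1613 bp. Treated-only peaks of the other autosomes without chromosome 8 had a median of 141 bp, with quartiles of 111 and 246 bp. Peaks of the 3 chromosomes were thus 30 bp wider at the median, with an interval from order statistics of 24.2 to 35.8 bp. With chromosome 8 among the other autosomes the direction turned, to -36.0 bp, with an interval of -42.4 to -29.6 bp. The greater width belonged to the dense stretches. Before the step of chromosome 5 the median was 197 bp and 16.6% of peaks were at least 400 bp wide, and after the step the median was 138 bp and 7.14% were. The medians of chromosomes 6 and 13 were 166 and 173 bp, and that of the first segment of chromosome 20 was 173 bp. SNDX-50469 peaks shared with control were wider, with a median of 354 bp on the 3 chromosomes and 426 bp on the other autosomes.

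Fold and −log10 p separated these sets less than width did. The median fold over background was 3.54 on the 3 chromosomes and 3.53 on the other autosomes, and 36.9% and 38.4% of the peaks sat at the smallest fold of the list. A −log10 p of at least 5 was reached by 305 peaks, or 5.88%, and by 5.66% of those elsewhere. The highest −log10 p on the 3 chromosomes was 7.26, beside 16.4 on the other autosomes. On chromosome 19 the highest was 7.03.

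The 3 strongest peaks of each chromosome were mostly far from gene starts. On chromosome 5 the strongest, at chr5:529634-529742, had a fold of 5.27 and lay 5.18 kb from the 5′ end of SLC9A3, a sodium and proton exchanger, and 493 bp from a control peak. The next lay within OXCT1, an enzyme of ketone body breakdown, 123 kb from its 5′ end and 10288 bp from a control peak, with a fold of 5.00. The third, with a fold of 4.96, lay 6.33 kb from the 5′ end of PLEKHG4B. All 3 lay before the step. On chromosome 6 the strongest peak, with a fold of 4.84, lay within PRDM1, a transcriptional repressor that directs plasma cell differentiation, 66.2 kb from its 5′ end. The other two had folds of 4.83 and 4.81 and lay 496 kb from the 5′ end of NOX3 and 549 kb from that of AGPAT4. On chromosome 13 the 3 strongest had folds of 4.81, 4.77 and 4.70 and lay 699 kb from DACH1, 94.2 kb from CLYBL and 56.5 kb from THSD1. Each of these 9 peaks was between 99 and 132 bp wide, narrower than the median.

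Of the treated-only peaks of the 3 chromosomes, 13.1% were at least 400 bp wide, beside 8.86% on the other autosomes without chromosome 8. The widest treated-only peak of chromosome 5 was 1613 bp, lay within PAIP1, which encodes a partner of the poly(A)-binding protein, 1.78 kb from its 5′ end, and was 420 bp from a control peak. The widest of chromosome 6 was 1235 bp and lay within TULP4, 1.55 kb from its 5′ end and 161 bp from a control peak. The widest of chromosome 13 was 1013 bp and lay 1464 kb from the nearest 5′ end, that of GPC5. Their folds were 3.73, 3.71 and 3.60, so the widest peaks were not the strongest. These 3 were chosen after their values were seen.

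Treated-only peaks of the 3 chromosomes lay farther from gene starts than those of the other autosomes without chromosome 8. Of the treated-only peaks of the 3 chromosomes, 257, or 4.96%, lay no more than 5 kb from a protein-coding 5′ end, with a Wilson interval of 4.40 to 5.58%. On the other autosomes without chromosome 8 the share was 11.6%, with an interval of 10.7 to 12.5%, so the difference was -6.62 percentage points, with an interval of -7.69 to -5.56. With chromosome 8 included it was -0.445 points, and the interval of -1.10 to 0.257 covered 0. The median distance was 84.3 kb on the 3 chromosomes and 40.7 kb elsewhere, and 45.1% and 29.3% of the peaks lay more than 100 kb away. The share within 5 kb was 4.56% before the step of chromosome 5, 6.43% after it, 5.35% on chromosome 6 and 4.04% on chromosome 13. Control peaks and shared peaks differed in the same direction. Control peaks lay within 5 kb of a 5′ end in 10.7% of cases on the 3 chromosomes and 17.9% elsewhere, and shared SNDX-50469 peaks did in 25.5% and 41.6%, so the lower share was also seen in peaks that are not treated-only. The midpoint of a treated-only peak lay within a protein-coding gene in 44.9% of cases on the 3 chromosomes and 57.1% elsewhere.

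**Figure D5:**
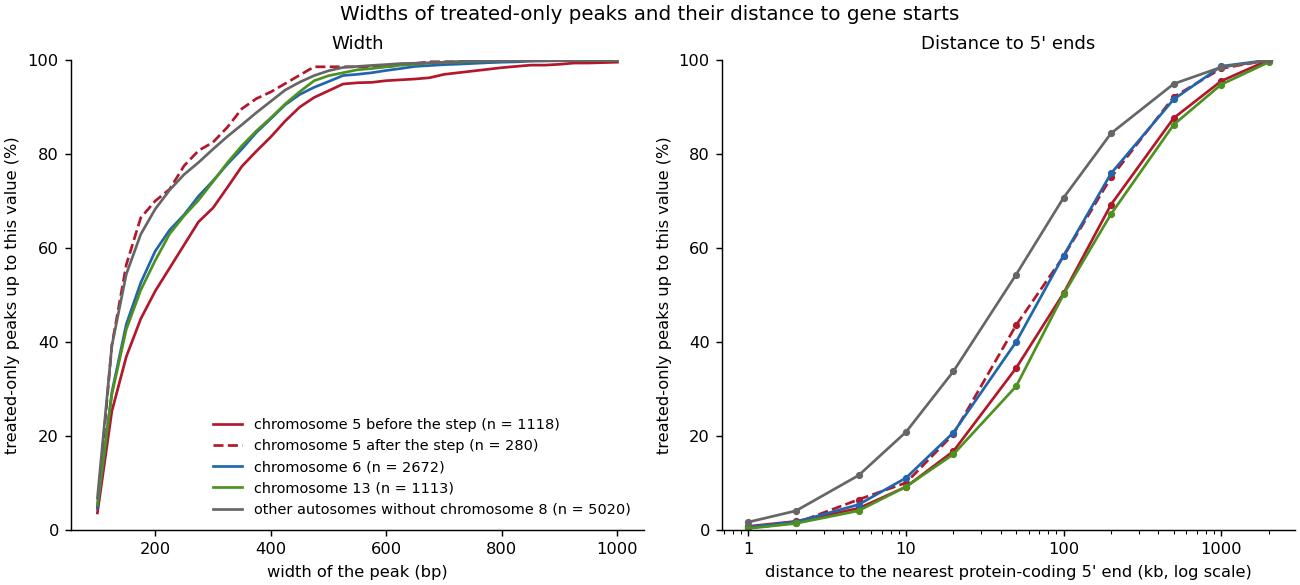
Cumulative share of treated-only peaks, in percent, by width in bp (left) and by distance to the nearest protein-coding 5′ end in kb on a log axis (right), for 5 sets. In width the 1118 peaks before the step of chromosome 5 lie lowest and the 280 after it lie beside the other autosomes, while in distance all 4 sets from chromosomes 5, 6 and 13 lie below the other autosomes from 1 to 500 kb.

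Treated-only peaks did not all stand far from control peaks. The median distance to the nearest control peak was 9647 bp, 1010 of the 5183 lay within 1 kb, and 2557 lay more than 10 kb away. Before the step of chromosome 5 the median distance was 18914 bp. The rule has a threshold at 0 bp, and 27 treated-only peaks lay within 10 bp of a control peak, the nearest at 1 bp, at chr6:106247353-106247465. Just inside the shared side, 32 of the 5082 shared SNDX-50469 peaks had under 10 bp in common with control, the smallest overlap being 1 bp at chr5:36728317-36728482. These had folds of 3.46 and 3.49. Of the shared peaks 82.4% were covered by control over their whole width.

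Genes with treated-only peaks followed the step. With peaks counted from 5 kb before to 5 kb after each gene body, 118 of 166 protein-coding genes before the step of chromosome 5 held at least 1, or 71.1%. After the step 120 of 738 genes did, or 16.3%. On chromosome 6 it was 521 of 1049 genes, or 49.7%, and on chromosome 13 it was 186 of 338, or 55.0%. At least 5 were held by 43 genes before the step and 2 after it. Long genes hold more peaks by their length, so numbers per 100 kb of body and flanks are given with them.

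The genes with the most treated-only peaks on chromosome 5 all lay before the step. CTNND2, a catenin of neuronal cell junctions, held 27 over a body of 933 kb, or 2.86 per 100 kb, and had 3 control peaks of 353 bp in all. TRIO, an exchange factor for small GTPases, held 18, or 4.78 per 100 kb, with 34 control peaks. PDZD2, a protein with PDZ domains, held 18, or 3.74 per 100 kb, with 35 control peaks. The gene with the most peaks thus had hardly any in control, while TRIO and PDZD2 had many control peaks. SNDX-50469 peaks shared with control numbered 1 in CTNND2, 3 in TRIO and 4 in PDZD2.

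On chromosome 6 the most were held by KCNQ5, a voltage-gated potassium channel, with 21 treated-only and 124 control peaks. LAMA2, a laminin chain of basement membranes, had 17 with 21 control peaks, and UTRN, which encodes the dystrophin relative utrophin, had 15 with 104 control peaks. Per 100 kb these were 3.58, 2.64 and 2.60. On chromosome 13, STARD13, a protein that activates GTP hydrolysis by small GTPases, held 16 with 63 control peaks. DOCK9, an exchange factor for CDC42, held 14 with 48 control peaks, and DIAPH3, a formin that nucleates actin filaments, held 11 with 22. The highest fold in any of these 9 genes was 4.54, in DOCK9.

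Cytokine receptor genes of chromosome 5 divided at the step. The list fixed for them has 7 genes, of which the 5 before the step held 31 treated-only peaks and the 2 after it held 0. OSMR, the oncostatin M receptor, held 12, or 10.95 per 100 kb, the widest of them 1193 bp, and had no control peak at all. LIFR, the receptor for leukaemia inhibitory factor, held 3 and also had no control peak. GHR, the growth hormone receptor, held 10 with 11 control peaks, PRLR, the prolactin receptor, held 5 with 9, and IL7R, the interleukin-7 receptor, held 1 with 14. IL31RA and IL6ST, which encodes the signalling subunit shared by OSMR and LIFR, lie after the step and had 45 and 4 control peaks. The list is small, and its counts read the same way as those of all genes on either side of the step.

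The cadherin genes of the list, which encode calcium-dependent adhesion proteins, all lie before the step. All 5 held treated-only peaks, 39 in total, beside 71.1% of all genes before the step, and 4 of the 5 had at most 1 control peak. CDH6 held 12, or 8.25 per 100 kb, with 1 control peak. CDH18 held 11 with 8 control peaks, CDH12 held 9 with 1, CDH10 held 4 with 0 and CDH9 held 3 with 0. CDH12 and CDH18 are over 1 Mb long, so their 0.809 and 0.987 per 100 kb are the lowest of the 5. The 53 clustered protocadherin genes lie after the step, where 16.3% of all genes held a treated-only peak, and held 0, while 27 had a control peak. Many of these genes overlap and share control peaks, so they are not separate loci.

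On chromosome 13, where 55.0% of all genes held a treated-only peak, 7 of 9 protocadherin, SLITRK and glypican genes held 22 in total. Only GPC5 and GPC6 had any control peak, and these 2 held 14 of the 22. GPC5, a glypican, held 9 with 25 control peaks, GPC6 held 5 with 6, and PCDH9, a protocadherin, held 4 with 0. These are long genes, with 0.609, 0.416 and 0.427 per 100 kb. SLITRK1, SLITRK5 and SLITRK6, transmembrane proteins of neurons, held 1 each and had no control peak.

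Of 16 genes fixed as known in AML and blood cells on chromosome 5, 15 had control peaks and 3 held treated-only peaks, namely TERT, the catalytic subunit of telomerase, with 2, IL7R with 1 and EBF1, a B cell factor, with 1. Of the 3 that lie before the step, TERT, IL7R and AHRR, 2 held treated-only peaks, and of the 13 after it EBF1 alone did. MEF2C and CSF1R, with 53 and 15 control peaks, held 0. On chromosome 6 it was 9 of 17 genes with 29 peaks. BACH2, a repressor of lymphoid cells, held 8 with 34 control peaks, PRDM1 held 5 with 22, FOXO3 and JARID2 held 4 each, RUNX2 held 3 and IRF4 held 2. On chromosome 13 it was 5 of 11 genes with 11 peaks, with RB1 at 4, FOXO1 at 3 and KLF12 at 2. FLT3, a receptor kinase gene, had 20 SNDX-50469 peaks shared with control and 0 treated-only peaks. The shares of these lists, 3 of 16, 9 of 17 and 5 of 11, lay near those of all genes on the same chromosomes, 26.3%, 49.7% and 55.0%.

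The histone and HLA genes are short and lie in clusters. On chromosome 6, 49.7% of all genes held a treated-only peak. Of 55 histone genes on chromosome 6, 53 had a control peak within 5 kb and 9 held a treated-only peak. Neighbouring histone genes share peaks through their flanks, and H2BC10, with 3, had the most. Of 21 HLA genes, 6 held treated-only peaks, among them the class II genes HLA-DPA1 with 2 and HLA-DQA1 and HLA-DOA with 1 each. These 3 had no control peak. HLA-DPA1 and HLA-DPB1 overlap, and 1 peak counts for both.

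The densest bins show both kinds of locus. The bin from 36 to 37 Mb of chromosome 5 held 62 treated-only and 119 control peaks, and it contains NIPBL, which loads cohesin, SKP2, a ubiquitin ligase subunit, and SLC1A3, a glutamate transporter. The bin from 31 to 32 Mb, with CDH6, PDZD2 and the microRNA-processing enzyme DROSHA, held 50 with 70. On chromosome 6, the bins from 89 to 90 Mb, with BACH2, and from 107 to 108 Mb held 32 each, with 237 and 165 control peaks. On chromosome 13 the bin from 51 to 52 Mb, with ATP7B and INTS6, held 36 with 253. Per 100 control peaks these bins had 52.1, 71.4, 13.5, 19.4 and 14.2, so that the densest bins of chromosome 5 stood apart from those of chromosomes 6 and 13 also in that ratio.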

How the data were processed

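The authors mapped the reads and deposited their broad peaks as 1 list for each library, in GRCh38 coordinates and called without pooling. The submitters' processing notes name Trim Galore 0.6.5, Bowtie2 2.3.4.2, Picard 2.9.0 and MACS2 2.1.2, and whether an input entered the calling is not given in the sources used here. In the deposited lists each peak has a ratio, its fold over the background of its own library, a −log10 p and −log10 q, and a score, which in the authors' files is a whole number made from the −log10 q and was left aside. These values are not scaled between libraries and were not compared peak by peak. Read totals are unknown.

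A SNDX-50469 peak was called treated-only when it shared 0 bp with every control peak. Peaks were counted by midpoint in bins of 1 Mb, and bins without a control peak were left out. Segments came from the Poisson likelihood of the counts, with at least 5 bins each and at most 5 steps. The largest number of steps was kept for which all neighbouring segments differed at least 2-fold, with 0.5 added to each count. The step finding was tested on simulated bins. Genes were those of the RefSeq annotation of GRCh38.p14. Of its 20056 protein-coding genes, 15842 had a strand in the RefSeq promoter table and 3833 took one by symbol from a GENCODE annotation of another build, from which no coordinate was used. The genome sequence of GRCh38 was not used here, so sequences are RefSeq promoter windows.

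Genes were named by rule: per chromosome the 3 genes with the most treated-only peaks, the 3 peaks with the highest −log10 p, up to 3 genes with the 5′ end in a treated-only peak, and fixed gene lists. The peaks, the lists and the comparisons were chosen with earlier results of these data known. Each condition has 1 library, so no test was made. Shares have Wilson and counts exact Poisson intervals at 95%, the interval of a ratio of densities is the exact binomial one, and those of differences combine the intervals of both parts. Alternatives tried were other rules for treated-only, bin sizes, segment criteria, comparison chromosomes and definitions of the 5′ end. Columns of per-sample values that were left out numbered 0. Python 3.11.15, numpy 2.4.6, pandas 2.3.3, scipy 1.17.1 and statsmodels 0.14.6 were used.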

Additional observations from a re-analysis of the deposited data

How the results depend on the processing

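No paired analysis was possible because there is 1 library per condition. The cause of the changes below was not tested, except where an alternative removes peaks by its construction. The number of treated-only peaks fell from 5183 to 305 with a −log10 p of at least 5, to 2211 with a width of at least 200 bp and to 3271 without peaks at the smallest fold, an alternative chosen after seeing the data. It ranged from 4173 to 6351 under the other rules. The step of chromosome 5 stayed between 44 and 45 Mb, and its ratio between 17.4 and 21.0, except by covered bp, where it was 26.99. Chromosome 6 kept 0 steps, except 5 with peaks at least 1 kb from control and 2 when bins without control peaks counted. On chromosome 13 the largest step moved from 80 to 52 Mb with the control list limited to peaks at or above the SNDX-50469 list's smallest −log10 p, no step was kept with bins of 0.5 or 2 Mb or at least 1 kb from control, and with all bins counted it was a rise at 19 Mb, with a ratio of 0.00346 to the peaks after it. Per control peak, also chosen after seeing the data, the ratio at 80 Mb turned round to 0.733, so the step there is not seen relative to control peaks.

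With chromosome 8 among the other autosomes, where 18062 treated-only peaks are then compared, the difference in median width turned from 30 to -36.0 bp and the difference in the share within 5 kb of a 5′ end shrank from -6.62 to -0.445 percentage points, with an interval of -1.10 to 0.257. With a −log10 p of at least 5 these were 12.5 bp and -8.74. The share difference was -4.79 at least 1 kb from control, -8.33 with the limited control list and -5.45 without chromosomes 19 and 20, the last chosen after seeing the data. Of 69 recomputed values, 43 kept to the main value, 23 moved and 3 turned round. A pileup of 5 fragments, the smallest in the SNDX-50469 list, limits which weak peaks could be called.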

Other observations

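Peaks that both lists share differed between the sides of chromosome 5. Of the SNDX-50469 peaks shared with control, 17.1% lay within 5 kb of a protein-coding 5′ end before the step and 36.8% after it, and their median widths were 357 and 408 bp.

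Chromosome 20 was the nearest likeness to chromosome 5. In its first 25 Mb, 40.8% of the SNDX-50469 peaks were treated-only, beside 15.1% in the rest. Treated-only peaks there had a median width of 173 bp before and 136 bp after its step, and 7.13% and 21.9% of them lay within 5 kb of a 5′ end. Control peaks were called again at 9.25% before and 5.69% after the step.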
